A study of Mus musculus with 12 samples.

Results

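The mitotic change in mRNA levels was measured in mouse B cell lymphoma cells whose ribosomal protein gene Rpl12 was unmutated, labelled RPL12 WT. The comparison used 4 of the 12 libraries of the series, 2 of WT asynchronous cells and 2 of WT mitotic cells, and it covered the 10477 of 51826 annotated genes that passed a filter on low counts. The other 8 libraries, from lines carrying RPL12 S38A or S38D in the same arrangement, entered to set the spread between replicates and to test whether the WT change differed. RPL12, also called uL11, is a protein of the large ribosomal subunit, and serine 38 was replaced by alanine, which cannot be phosphorylated, or by aspartate, which carries a negative charge.

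All libraries came from 1 established lymphoma line, 19PP, grown out of a Rag2-/-γC-/- mouse that had been given bone marrow cells of a Cγ1-Cre; Myc/P110*flSTOP donor, an allele combination in which Cre acts in B cells that switch on the γ1 constant region. A Flp plasmid removed the GFP and hCD2 reporters, and the sorted reporter-negative subline, 19DN, was the one cultured. Mitotic cells were held with nocodazole, which depolymerises microtubules, at 100 ng/mL for 8 h, washed and left for 10 min in fresh medium. Asynchronous cells had no such step in their labels, so the drug, the wash and the stage of the cycle cannot be told apart. Both groups were collected with cycloheximide, which stops elongating ribosomes, at 100 µg/mL. RNA was taken from detergent lysates cleared by centrifugation, and 1 µg of total RNA received 1 µL of a 1:50 dilution of ERCC spike-in RNA, so the spike-in measures a gene's reads per mass of total RNA and not per cell. Nothing in the reads checks the mitotic state or codon 38. DNA content by flow cytometry is mentioned in the labels and not analysed here. Nothing in the labels says that replicates were separate cultures, so the p-values reflect the scatter of these samples alone, which could be technical.

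At entry into mitosis, chromosomes condense, the nuclear envelope breaks down, most transcription stops and translation falls. On exit, transcription restarts within minutes, and genes that need no new protein to be switched on, the immediate early genes, are among the quickest to respond to fresh medium and to stress. Tubulin mRNAs are known to be degraded when unpolymerised tubulin accumulates, and microtubules are the target of nocodazole.

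The 4 WT libraries held between 3432875 and 5301264 gene reads, and the other 8 held 4835504 to 6587997. B cell markers were present, with all 10 detected at a summed 3420 and 3260 CPM (reads per library size as scaled by TMM, edgeR's normalisation that sets the bulk of genes to no change) in asynchronous and 2150 and 2100 CPM in mitotic libraries, whereas 7 of 10 T and NK cell markers (Cd3d, Cd3e, Cd3g, Cd4, Cd8a, Ncr1 and Trbc2) and 6 of 8 myeloid markers had no read and neither list summed to more than 1.31 CPM in any WT library. In a longer list of 21 myeloid markers, 4 were tested and these summed to 39.3 to 72.5 CPM, mostly from Clec4d, a C-type lectin, at 42.6 and 34.2 CPM in asynchronous and 50.7 and 63.8 CPM in mitotic libraries. Of the 4, Fcgr3, an Fc receptor, was higher by TMM (1.03) and none passed by spike-in. In a longer list of 23 T and NK cell markers, 1 was tested, at 1.97 to 3.96 CPM. A beta globin gene, Hbb-bt, gave nearly all of the erythroid sum of 784 and 799 CPM in asynchronous and 492 and 513 CPM in mitotic libraries, with both alpha globin genes at 0. WT mitotic replicate 1 stood apart from replicate 2. The SD of the log2 difference between replicates over 7057 genes was 0.404 for the WT mitotic pair against 0.22 for the WT asynchronous pair, and S38D asynchronous replicates differed by 0.588.

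Which genes counted as changed depended on the scale. By TMM, 1399 genes were higher in mitotic cells (13.4% of those tested) and 1328 were lower (12.7%) at an adjusted p under 0.05 in edgeR's quasi-likelihood test with Benjamini-Hochberg adjustment. By the ERCC spike-in, 217 were higher (2.07%) and 3232 were lower (30.8%). Spike-in reads were 2.705% and 2.29% of gene reads in the asynchronous libraries and 3.301% and 3.314% in the mitotic ones, so every gene's estimate fell by a median of 0.44 log2 units from TMM to spike-in, and the shift was -0.311 to -0.569 over the 4 pairs of libraries. Fewer cells of a type and less RNA per cell cannot be told apart by either scale. All 217 genes higher by spike-in were also higher by TMM, and all 1328 lower by TMM were also lower by spike-in. The remaining 1182 TMM-higher genes were not called by spike-in, and 1904 genes called lower by spike-in were not called by TMM. No gene was called in opposite directions, and at an unadjusted p under 0.05 none was higher by TMM and lower by spike-in. Both scales use the same counts and differ by a downward shift, so this nesting was built in. A fall on both scales is therefore no second piece of evidence. Counts fell when a WT library was left out. By TMM 538 were higher and 567 lower without asynchronous replicate 1, 765 and 808 without asynchronous replicate 2, and 677 (6.28%) and 618 (5.73%) without mitotic replicate 1. By spike-in the higher count fell to 94 without asynchronous replicate 1 and 86 (0.797%) without mitotic replicate 1 and rose to 355 and 357 without S38D asynchronous replicates 1 and 2, and the lower count fell to 1495 without asynchronous replicate 2, 1715 (15.9%) without mitotic replicate 1 and 1982 without mitotic replicate 2.

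**Figure D1:**
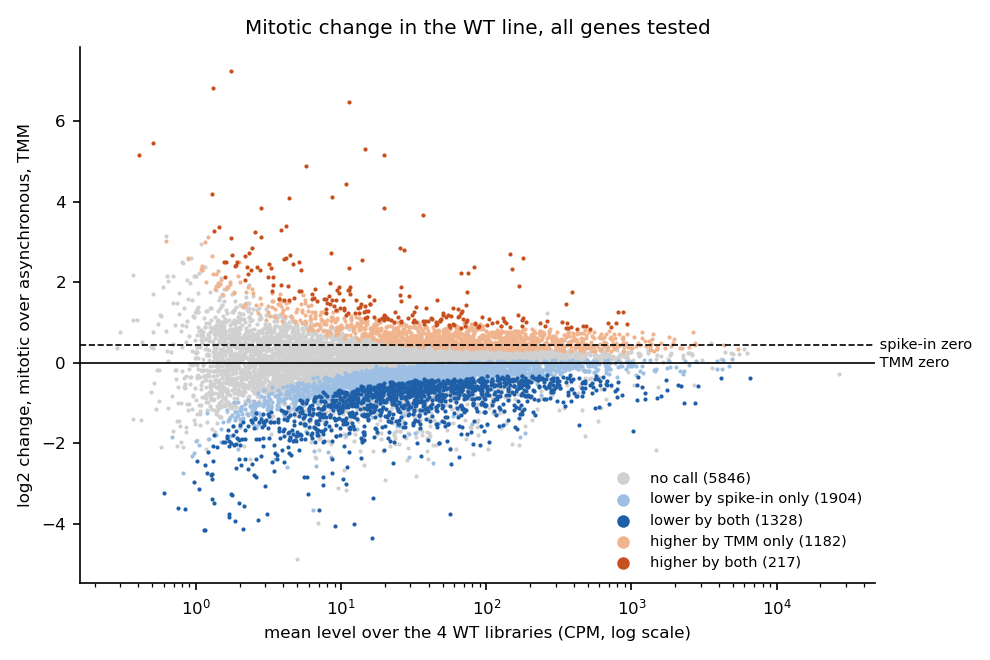
Log2 change in WT mitotic against asynchronous cells by TMM scaling (vertical axis) against the mean level in the 4 WT libraries in CPM (horizontal log axis), 1 point for each of the 10477 genes, coloured by the call under TMM and ERCC spike-in scaling, with a solid line at no change by TMM and a dashed line at no change by spike-in. The 1328 genes lower under both scales and the 217 higher under both lie at the outside, and the 1182 genes higher by TMM alone lie between the latter and the uncalled genes.

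Immediate early genes had some of the largest increases among the genes that passed on both scales. Sequences 200 bases upstream of the start sites of Fosb, Rgs2 and Fos, from RefSeq on GRCm38.p6, are given because these are the 3 members with the smallest adjusted p that have a promoter in the table. Capitals mark matches to TGACG on either strand, a core of the cyclic AMP response element, to CCAAT, the box bound by NF-Y, and to TATAAA, the TATA box. The windows are chr7:19310046-19310245 on the minus strand for Fosb, chr1:144004150-144004349 on the minus strand for Rgs2 and chr12:85473690-85473889 on the plus strand for Fos.
Fosb: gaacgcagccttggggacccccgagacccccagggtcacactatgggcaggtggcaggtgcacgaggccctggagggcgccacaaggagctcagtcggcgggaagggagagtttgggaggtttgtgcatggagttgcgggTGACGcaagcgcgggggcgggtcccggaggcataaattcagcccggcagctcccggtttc
Rgs2: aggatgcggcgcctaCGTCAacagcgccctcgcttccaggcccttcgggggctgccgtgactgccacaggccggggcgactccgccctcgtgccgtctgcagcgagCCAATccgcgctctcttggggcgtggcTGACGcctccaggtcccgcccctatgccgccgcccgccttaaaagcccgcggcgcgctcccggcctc
Fos: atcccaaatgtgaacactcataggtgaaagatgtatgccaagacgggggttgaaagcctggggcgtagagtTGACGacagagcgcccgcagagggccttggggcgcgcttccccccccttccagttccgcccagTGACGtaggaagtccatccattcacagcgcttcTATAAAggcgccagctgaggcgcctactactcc
A TGACG match was present in all 3, at -60 from the start in Fosb, at -185 and -67 in Rgs2, and at -129 and -66 in Fos, whose TATAAA starts at -33. In windows of 300 bases around the start, TGACG was found in 53.8% of 39 immediate early promoters and in 34.8% of all 8112 promoters matched, and TATAAA in 23.1% and 6.42%. In the 17 of those members that were higher by TMM the shares were 47.1% and 11.8%. A match is a run of letters and says nothing of what binds there. TGACG also lies within the complete element TGACGTCA, which was counted separately.

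Fos, a subunit of the AP-1 transcription factor (chr12:85473890-85477273, plus strand), was at 0.781 and 0.566 CPM in the asynchronous libraries, from 4 and 2 reads, and at 24.3 and 32.4 CPM in the mitotic ones. Both mitotic libraries were far above both asynchronous ones, and the fitted log2 change was 5.31 ± 0.37 (SE) by TMM and 4.91 ± 0.39 by spike-in (edgeR adjusted p = 1.69e-07 and 8.46e-07). Fosb, its relative, was at 5.27 and 5.38 CPM against 70.0 and 65.5 CPM, a log2 change of 3.67 ± 0.18 by TMM and 3.24 by spike-in. Jun, the usual partner of Fos in AP-1, rose from 7.22 and 6.22 CPM to 45.1 and 50.2 CPM, a log2 change of 2.81 ± 0.21. In none of these did the groups overlap on either scale, which the rule that named them required. Rgs2, which shortens signalling by heterotrimeric G proteins, was at 36.9 and 40.5 CPM and then 249 and 254 CPM, a log2 change of 2.70 ± 0.13. Egr1, a zinc finger transcription factor, went from 48 and 52.9 CPM to 264 and 347 CPM, and Ier2, a short-lived nuclear protein, from 30.6 and 36.8 CPM to 118 and 112 CPM. Their log2 changes were 2.60 and 1.77 by TMM, and both passed by spike-in too.

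Of 53 immediate early genes listed, 46 were tested, and 22 were higher and 4 lower by TMM against 13.4% and 12.7% of all genes. A gene could pass the filter on low counts through its mitotic libraries alone, and of the 42 with at least 10 reads in both WT asynchronous libraries, 18 were higher. The median log2 change was 0.72 by TMM, beside -0.02 over all genes, and 0.28 by spike-in, beside -0.46. By spike-in 15 were higher (32.6%, beside 2.07% of all genes) and 7 lower (15.2%, beside 30.8%). The 4 lower by TMM, named after their values were seen, were Mcl1, which protects from apoptosis (-0.56), Pim1, a serine kinase (-0.71), Gadd45a, a growth arrest and DNA damage gene (-1.72), and Jund, another AP-1 subunit (-0.55). With each of the 12 libraries left out in turn, 16 to 26 were higher and 3 to 7 lower by TMM, the 7 without either S38D asynchronous library. By spike-in 9 were higher without WT asynchronous replicate 1, and 4 lower without WT asynchronous replicate 2 or mitotic replicate 1 and 12 without either S38D asynchronous library. The S38A and S38D lines had 24 and 27 members higher in their own mitotic cells by TMM. Over the autosomes and X, the share of a chromosome's tested genes called higher was 4.87% to 11.3% in S38A and 7.47% to 14.6% in S38D. In the direct test of the WT change minus the mean of the mutant changes, Jund (-0.82, edgeR adjusted p = 0.0396) and Nr4a2 (-1.23, edgeR adjusted p = 0.0313) passed. Neither was stable: none of the list was below in 9 of the 12 omissions, 11 were without S38D asynchronous replicate 2, and DESeq2 and the GC offset each called 1.

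**Figure D2:**
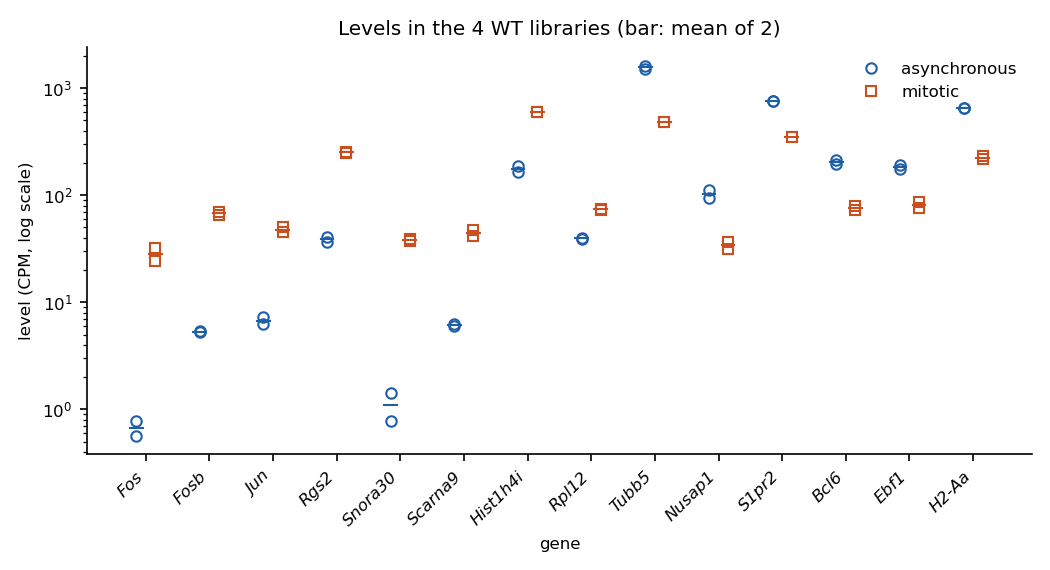
Level in each WT library in CPM (log axis) for named genes, with circles for asynchronous and squares for mitotic libraries, 2 in each group, and a bar at their mean. For Fos the mitotic points at 24.3 and 32.4 CPM lie above the asynchronous points at 0.781 and 0.566 CPM, and for Tubb5 the order is reversed.

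Small nucleolar RNAs and their Cajal body relatives, the scaRNAs, guide chemical changes of ribosomal and spliceosomal RNA and are mostly cut from introns of host transcripts. Most of those tested were higher in the mitotic libraries, and they were picked out as a class after their values were seen. Snora30 and Snora73b, with the H/ACA form, and Scarna9, with C and D boxes, are shown. They were among the 15 most increased genes kept by the naming rule given below. Capitals mark the ACA that stands 3 bases before the end in the first and last, and the C box core TGATGA and the D box CTGA in Scarna9. On GRCm38 they lie at chr7:127527874-127528003 on the plus strand, chr4:132352322-132352526 on the minus strand and chr9:15326264-15326333 on the minus strand, with sequences from the GENCODE transcripts.
Snora30: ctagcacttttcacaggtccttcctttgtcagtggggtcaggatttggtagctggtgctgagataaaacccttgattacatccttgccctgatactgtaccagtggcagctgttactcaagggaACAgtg
Scarna9: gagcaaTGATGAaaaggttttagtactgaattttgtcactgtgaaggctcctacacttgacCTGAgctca
Snora73b: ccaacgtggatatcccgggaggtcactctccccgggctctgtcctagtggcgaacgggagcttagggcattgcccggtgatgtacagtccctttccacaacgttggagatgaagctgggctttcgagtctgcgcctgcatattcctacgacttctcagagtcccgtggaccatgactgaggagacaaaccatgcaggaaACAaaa

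Snora30 was at 0.781 and 1.42 CPM in asynchronous cells, from 4 and 5 reads, and at 39.4 and 37.7 CPM in mitotic cells, a log2 change of 5.17 ± 0.30 by TMM (edgeR adjusted p = 2.55e-08) and 4.75 by spike-in. Scarna9 was at 6.25 and 5.94 CPM and then at 47.1 and 41.6 CPM, and its log2 change was 2.86 ± 0.22. Snora73b was at 30.6 and 21.8 CPM and then at 164 and 112 CPM, with 2.38 ± 0.28. In all 3 both mitotic libraries were above both asynchronous ones on both scales, which the rule that named them required. Of the 35 small RNAs of these types that were tested, 26 were higher and 0 lower by TMM against 13.4% and 12.7% of all genes. By spike-in 20 were higher and 0 lower against 2.07% and 30.8% of all genes. These counts are over members that could pass the filter because they were high in mitotic cells: 1558 such genes are annotated, and only 9 of the 35 had at least 10 reads in both WT asynchronous libraries. Of those 9, 6 were higher and 0 lower by TMM, with a median of 1.57, and 5 were higher by spike-in. At an unadjusted p under 0.05 the TMM counts were 26 and 0, DESeq2 gave 13 and 0, and limma-voom 25 and 0. The median log2 change was 2.32 by TMM and 1.93 by spike-in. Without WT asynchronous replicate 1 or mitotic replicate 1 the count fell to 17 and 16, and the other omissions gave up to 26. Those with ACA near the end passed in 15 of 19 cases and the rest in 11 of 16. The S38A and S38D lines had 15 and 28 of the 35 higher in their mitotic cells, beside 4.87% to 11.3% and 7.47% to 14.6% of all tested genes by chromosome. None of the 35 passed the test of WT against the mean of those lines (1 at an unadjusted p under 0.05).

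Each small RNA with a tested host had a higher estimate than the gene around it. A tested host on the same strand contained 29 of the 35, in 26 distinct hosts, and the small RNA had the larger log2 change in 29 of 29 pairs. In 6 of these pairs the small RNA had at least 10 reads in both WT asynchronous libraries, and of those 5 were called higher and all 6 lay above their host. The medians were 2.45 for the small RNAs and 0.07 for the hosts, of which 6 pairs had a host called higher, 3 lower and 20 not called. Snora20, which lies within Tcp1, a chaperonin gene, was at 0.39 and 0.566 CPM in asynchronous and 9.43 and 7.23 CPM in mitotic libraries, whereas Tcp1 itself was at 149.9 and 143 CPM and then 159 and 156 CPM. The log2 changes were 4.11 for the small RNA and 0.10 for its host, which did not pass. Libraries were primed on poly(A), which mature small RNAs of these kinds mostly lack, and reads of a small RNA and of an intron that holds it cannot be told apart in these counts. RNA came from cleared lysates. A group difference in how much of an RNA entered them cannot be told apart from a change in its level.

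**Figure D3:**
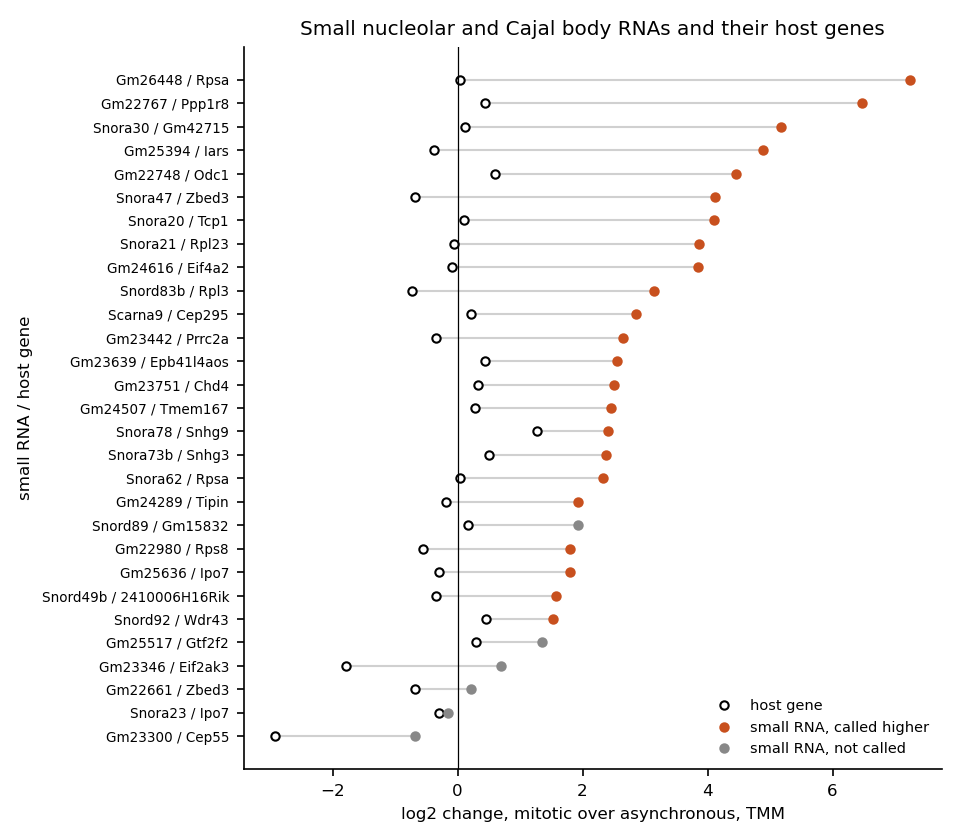
Log2 change by TMM in WT mitotic against asynchronous cells (horizontal axis) of each small nucleolar or Cajal body RNA (filled points, orange where called higher and grey where not called) and of the tested gene that contains it (open points), 1 row for each of 29 pairs. In all 29 rows the filled point lies to the right of the open one, with medians of 2.45 for the small RNAs and 0.07 for the hosts.

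Some other RNAs that stay in the nucleus or lack a poly(A) tail were also higher in mitotic libraries, though most tested members of both lists were not called. As for the small RNAs, these are levels in cleared lysates, and how much of each RNA entered the lysate was not measured. Malat1, a long noncoding RNA of nuclear speckles (chr19:5795690-5802672, minus strand), was at 47.2 and 40.5 CPM in asynchronous and 108.1 and 79.7 CPM in mitotic libraries, apart on both scales, with a log2 change of 1.09 ± 0.23 by TMM and 0.66 by spike-in (edgeR adjusted p = 0.00455 and 0.0307). Of 12 nuclear long noncoding RNAs tested of 18 listed, 4 were higher (33.3%, beside 13.4% of all genes) and 0 lower by TMM. The 4 were Gm26917, Mir17hg, Malat1 and Kcnq1ot1. By spike-in 3 were higher (25%, beside 2.07%), the same without Kcnq1ot1. The numbers at an unadjusted p under 0.05 were 6 and 0, and DESeq2 called 3 higher. By spike-in 1 was higher without WT asynchronous replicate 1, without replicate 2, or without mitotic replicate 1. Hist1h4i, a histone H4 gene of the replication-dependent class whose main transcripts end in a stem-loop, was at 165 and 188 CPM and then 604 and 595 CPM, a log2 change of 1.77 ± 0.10 by TMM and 1.32 by spike-in. Of 68 such histone genes, 25 were tested, and 7 were higher (28%, beside 13.4% of all genes) and 0 lower by TMM, with a median of 0.62. The counts were 8 and 0 at an unadjusted p under 0.05, 6 and 0 by DESeq2, and 7 and 0 by limma-voom. By spike-in 4 were higher (16%, beside 2.07%) and the median was 0.18. With at least 10 reads in both WT asynchronous libraries, 6 of 11 were higher by TMM and 3 by spike-in. Without WT asynchronous replicate 1 or 2 the TMM count was 2 and 3, and by spike-in it was 1 without either of them or without mitotic replicate 1, and 2 without most other libraries. Hist1h1c, a linker histone, rose from 170 and 188 CPM to 280 and 301 CPM by TMM (0.70), and its change was smaller than in the mutant lines by 0.97 log2 units (edgeR adjusted p = 0.00292); by spike-in it was 0.25 and did not pass.

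Rpl12 itself (chr2:32961559-32965345, plus strand) was at 39.8 and 39.0 CPM in asynchronous and 73.4 and 74.3 CPM in mitotic libraries. Per 10000 spike-in reads it had 15.4 and 17.6 reads and then 22.2 and 23.1, so the groups were apart on both scales. Its log2 change was 0.90 ± 0.16 by TMM and 0.47 ± 0.17 by spike-in (edgeR adjusted p = 0.00092 and 0.0438). Of 88 cytosolic ribosomal protein genes, 79 were tested, and 18 were higher (22.8%) and 6 lower (7.59%) by TMM, beside 13.4% and 12.7% of all genes, with a median of 0.11. By spike-in 3 were higher (Rpl12, Rpl18 and Rpl36) and 26 lower (32.9%), near the 30.8% of all genes, and the median of -0.33 stood beside -0.46 over all genes. Rpl18 rose by 1.16 on the log2 scale by TMM, from 39.2 and 41.6 CPM to 94.5 and 85.4 CPM. Rpl22l1, a paralogue of Rpl22, fell from 251 and 212 CPM to 142 and 144 CPM. Many of these genes have processed copies elsewhere in the genome, and how such reads were counted is not given in the sources used here. Without WT asynchronous replicate 1, replicate 2 or mitotic replicate 1, 4, 8 and 10 were higher by TMM, and 28 without S38D asynchronous replicate 2; 3 were lower without WT asynchronous replicate 1 or mitotic replicate 1. By spike-in 9, 10 and 12 were lower without WT asynchronous replicate 2, mitotic replicate 1 and mitotic replicate 2, and 0 to 6 were higher over the 12 omissions.

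Ribosome biogenesis genes, which make and fold the ribosomal subunits in the nucleolus, were more often higher than lower by TMM. By TMM 36 of 93 were higher (38.7%, beside 13.4% of all genes) and 4 lower (4.3%, beside 12.7%), with a median of 0.28. By spike-in, which moved all genes down by a median of 0.44 log2 units, 2 were higher (2.15%, beside 2.07%) and 16 lower (17.2%, beside 30.8%), with a median of -0.16 beside -0.46 over all genes. Polr1b, the second largest subunit of RNA polymerase I, which transcribes ribosomal RNA, was at 39.6 and 38.8 CPM and then 120.0 and 92.7 CPM, with log2 changes of 1.44 ± 0.18 and 1.00 ± 0.18 on the TMM and spike-in scales. Rrp9, a U3 small nucleolar RNA binding protein, was at 83.4 and 80.9 CPM and then at 178 CPM in both mitotic libraries, with log2 changes of 1.11 and 0.67. Those were the 2 called by spike-in, and neither overlapped between groups, which their choice by smallest adjusted p favoured. The 4 lower by TMM were Npm1 and Ncl, the abundant nucleolar proteins nucleophosmin and nucleolin, Rpf2 and Gnl3l. Mitochondrial ribosomal protein genes had 25 of 75 higher and 2 lower (Mrpl9 and Mrpl24) by TMM, 33.3% and 2.67%, median 0.26, and 1 higher (Mrps6) and 12 lower (16%) by spike-in, median -0.19. Mrps6 was at 319 and 320 CPM and then at 624 and 582 CPM, a log2 change of 0.92 by TMM and 0.47 by spike-in. The TMM-higher counts without WT asynchronous replicate 1, replicate 2 or mitotic replicate 1 were 17, 19 and 19 of the biogenesis genes and 11, 12 and 11 of the mitochondrial ones, and 50 and 35 were the highest over the omissions. The spike-in lower counts ranged from 6 to 26 and from 2 to 20, lowest without WT asynchronous replicate 2 and highest without an S38D asynchronous library.

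Tubulin mRNAs were lower on both scales. Tubb5, a major beta tubulin (chr17:35833921-35838306, minus strand), was at 1501 and 1630 CPM in asynchronous and 484 and 486 CPM in mitotic libraries, and at 579 and 733 against 147 and 151 reads per 10000 spike-in reads. The mitotic values lay far under the asynchronous ones, with log2 changes of -1.69 ± 0.14 by TMM and -2.14 ± 0.15 by spike-in (edgeR adjusted p = 9.79e-07 and 4.12e-07). Tuba1a, an alpha tubulin, was at 350.0 and 356 CPM and then 201 and 186 CPM, a log2 change of -0.87 ± 0.11. Tuba1b was at 324 and 346 CPM and then 184 and 174 CPM (-0.90), and Tubb2a at 66.8 and 82.1 CPM and then 29.6 and 28.5 CPM (-1.35). All 4 were apart between groups, which their choice by smallest adjusted p favoured. Of 13 tubulin genes tested of 17 listed, 8 were lower and 0 higher by TMM, also by DESeq2, limma-voom and at an unadjusted p under 0.05, against 12.7% and 13.4% of all genes. The median was -0.87 by TMM and -1.31 by spike-in, by which 9 were lower (69.2%, beside 30.8% of all genes). The other 4 lower by TMM were Tuba1c, Tubb3, Tubb4b and the gamma tubulin Tubg1 of the microtubule organising centre. With each library left out, 7 or 8 were lower by TMM and 8 or 9 by spike-in, and 1 was higher by TMM without either S38D asynchronous library. Members not called were Tuba4a, Tubd1, Tube1, Tubb6 and Tubg2 by TMM, and Tuba4a was at 830 and 870 CPM and then 1005 and 949 CPM. The fall of Tuba1a was smaller than in the mutant lines by 0.89 log2 units (edgeR adjusted p = 0.00471), a call lost by spike-in (adjusted p = 0.103) and without WT asynchronous replicate 1. Of 21 genes for the CCT chaperonin, prefoldin and tubulin cofactors, which fold new tubulin, 1 was lower and 1 higher by TMM. Each is 4.76%, under the 12.7% and 13.4% of all genes. They were Vbp1, a prefoldin subunit (-0.62), and Cct3, a chaperonin subunit (0.33). By spike-in 8 were lower (38.1%, near the 30.8% of all genes) and 0 higher (0 higher at an unadjusted p under 0.05).

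Genes whose mRNA peaks in G2 and M were more often lower than higher in the libraries labelled mitotic. Of 79 tested of 81 listed, 29 were lower (36.7%, beside 12.7% of all genes) and 5 higher (6.33%, beside 13.4%) by TMM with a median of -0.42, and 46 were lower (58.2%, beside 30.8%) and 0 higher by spike-in with a median of -0.86 (0 higher also at an unadjusted p under 0.05). Nusap1, a spindle-associated protein, was at 112 and 94.2 CPM in asynchronous and 36.6 and 31.3 CPM in mitotic libraries, a log2 change of -1.60 ± 0.14 by TMM. Cdc25b, the phosphatase that helps to start mitosis, was at 1920 and 1975 CPM and then 1050 and 1075 CPM (-0.87), a smaller fall than in the mutant lines by 0.65 log2 units (edgeR adjusted p = 0.0396), a call lost by spike-in (adjusted p = 0.337) and in 10 of the 12 omissions. Top2a, the topoisomerase that untangles chromosomes, was at 235 and 203 CPM and then 139.8 and 114 CPM (-0.79). These 3 were apart on both scales, which their choice by smallest adjusted p favoured. The 5 higher by TMM were Mybl2, Pimreg, Ccna2, Birc5 and Troap, and none passed by spike-in. Cdk1, the kinase that drives mitosis, is named because its mitotic libraries split, at 579 and 677 CPM in asynchronous and 128 and 428 CPM in mitotic cells, and it did not pass. Without WT asynchronous replicate 1 the TMM count of lower genes was 15, without mitotic replicate 1 it was 16, and without asynchronous replicate 2 the spike-in count was 28. TMM-higher genes numbered 0, 3, 1 and 3 without each of the 4 WT libraries.

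Genes of G1/S and DNA replication were lower in 19 (26.4%, beside 12.7% of all genes) and higher in 8 (11.1%, beside 13.4%) of 72 by TMM, median -0.27. By spike-in they were lower in 36 (50%, beside 30.8%) and higher in 0 (0 at an unadjusted p under 0.05), median -0.71. Pcna, the sliding clamp of DNA polymerase, was at 73.8 and 75.3 CPM and then 47.3 and 41.4 CPM, and Clspn, a replication checkpoint mediator, at 74.4 and 68.5 CPM and then 47.1 and 41.4 CPM. E2f3, a transcription factor for S phase genes, was at 27.3 and 31.4 CPM and then 52.6 and 48.4 CPM, higher by TMM (0.79) and not called by spike-in (0.34). All 3 were apart between groups by TMM, which their choice by smallest adjusted p favoured. The TMM count of lower genes was 9 to 12 without any 1 WT library, the higher count 2 or 3 without WT asynchronous replicate 1 or 2 or mitotic replicate 1, and the spike-in lower count was 22 without asynchronous replicate 2.

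Most B cell identity genes tested were lower in mitotic cells. Of 51 tested of 57 listed, 32 were lower (62.7%, beside 12.7% of all genes) and 0 higher (beside 13.4%) by TMM. The median was -0.54 beside -0.02 over all genes. By spike-in 39 were lower (76.5%, beside 30.8%) and 0 higher (beside 2.07%), with a median of -0.98 beside -0.46. At an unadjusted p under 0.05, 33 were lower and 1 higher by TMM, DESeq2 called 29 lower and limma-voom 32. Ebf1, a transcription factor that specifies the B lineage (chr11:44617317-45008091, plus strand), was at 193 and 177 CPM in asynchronous and 75.2 and 85.7 CPM in mitotic libraries, a log2 change of -1.21 ± 0.11 by TMM and -1.64 by spike-in. Foxp1, a forkhead factor of B cell development, was at 248 and 242 CPM and then 83.2 and 75.4 CPM (-1.63 ± 0.14), and Pou2f2, the octamer factor OCT2, at 449 and 447 CPM and then 235 and 218 CPM (-0.98). Ltb, which codes for lymphotoxin beta, was at 771 and 850 CPM and then 386 and 370 CPM (-1.10). In these 4 the groups were apart on both scales, which their choice by smallest adjusted p favoured. Without mitotic replicate 1 the TMM count was 21, and the other omissions gave up to 33, with 1 higher without either S38D asynchronous library; the spike-in counts stayed between 31 and 43. The S38A and S38D lines had 31 and 32 of the 51 lower in their mitotic cells, beside 4.03% to 13.7% and 10% to 23.7% of all tested genes by chromosome. Vpreb3 (1.14) and Irf8 (0.85) were the members whose WT change lay above that of the mutant lines (edgeR adjusted p = 0.035 and 0.0317). Neither passed by spike-in (adjusted p = 0.158 and 0.195), each call was lost in 8 of the 12 omissions, and 13 members were above without S38D asynchronous replicate 2.

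Germinal centre genes, active where B cells mutate and select their antibodies, followed the same direction. By TMM 15 of 29 tested were lower (51.7%, beside 12.7% of all genes) and 2 higher (6.9%, beside 13.4%). By spike-in 20 were lower (69%, beside 30.8%) and 1 higher (3.45%, beside 2.07%). The medians were -0.54 and -0.98. Bcl6, the repressor that maintains the germinal centre state, was at 195 and 214 CPM and then 80.0 and 72.7 CPM (-1.42 ± 0.13). S1pr2, a sphingosine phosphate receptor that holds these cells in place, was at 765 and 763 CPM and then 353 and 348 CPM (-1.12), and Nuggc, a nuclear GTPase, at 79.5 and 90.5 CPM and then 18.7 and 25.9 CPM (-1.94). None overlapped between groups, which their choice by smallest adjusted p favoured. The 2 higher by TMM were Ung, a uracil DNA glycosylase (0.65), and Cd83, an activation marker (1.56), and only Cd83 was called by spike-in, a call lost without any 1 WT or S38A library. With each library left out, 10 to 18 were lower by TMM and 15 to 23 by spike-in.

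Plasma cell genes were split. Tent5c, a poly(A) polymerase of plasma cells, was at 26.2 and 26.3 CPM and then 135 and 112 CPM, a log2 change of 2.23 ± 0.14 by TMM and 1.79 by spike-in, and Sdc1, the plasma cell marker CD138, was at 33.2 and 28.9 CPM and then 56.4 and 74.9 CPM (1.07 and 0.65). Those 2 of 17 tested were higher on both scales (11.8%, beside 13.4% of all genes by TMM and 2.07% by spike-in). By TMM 7 were lower (41.2%, beside 12.7%) and by spike-in 11 (64.7%, beside 30.8%). Pou2af1, the coactivator of the octamer factors, was at 3599 and 3768 CPM and then 1879 and 1794 CPM (-1.45 by spike-in). Among 29 MHC class II and antigen presentation genes, H2-Aa, an MHC class II alpha chain (chr17:34282744-34287823, minus strand), was at 650 and 652 CPM and then 216 and 231 CPM, a log2 change of -1.54 ± 0.10 by TMM and -1.98 by spike-in. Ifi30, a lysosomal thiol reductase, went the other way, from 60.1 and 52.1 CPM to 111 and 112 CPM (0.99 and 0.56). Of the 29, 6 were lower (20.7%, beside 12.7% of all genes) and 4 higher (13.8%, beside 13.4%; Ifi30, Ctsd, Ctsb and Tapbp) by TMM, and 15 lower (51.7%, beside 30.8%) and 1 higher (Ifi30) by spike-in, so the share higher was near that of all genes. Without WT asynchronous replicate 1 and 2, 3 and 4 plasma cell genes were lower by TMM, and 4 without either S38A mitotic library, and by spike-in 7 without either WT mitotic library, and the spike-in higher count was 1 without WT asynchronous replicate 1 or 2 or mitotic replicate 2. The MHC class II higher count by TMM was 2 without WT asynchronous replicate 1 or mitotic replicate 1, and the lower count by TMM was 3 without WT asynchronous replicate 2 and 11 without S38D asynchronous replicate 1, the spike-in lower count was 9 without WT asynchronous replicate 2, and the Ifi30 call by spike-in was lost without any 1 WT library.

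**Figure D4:**
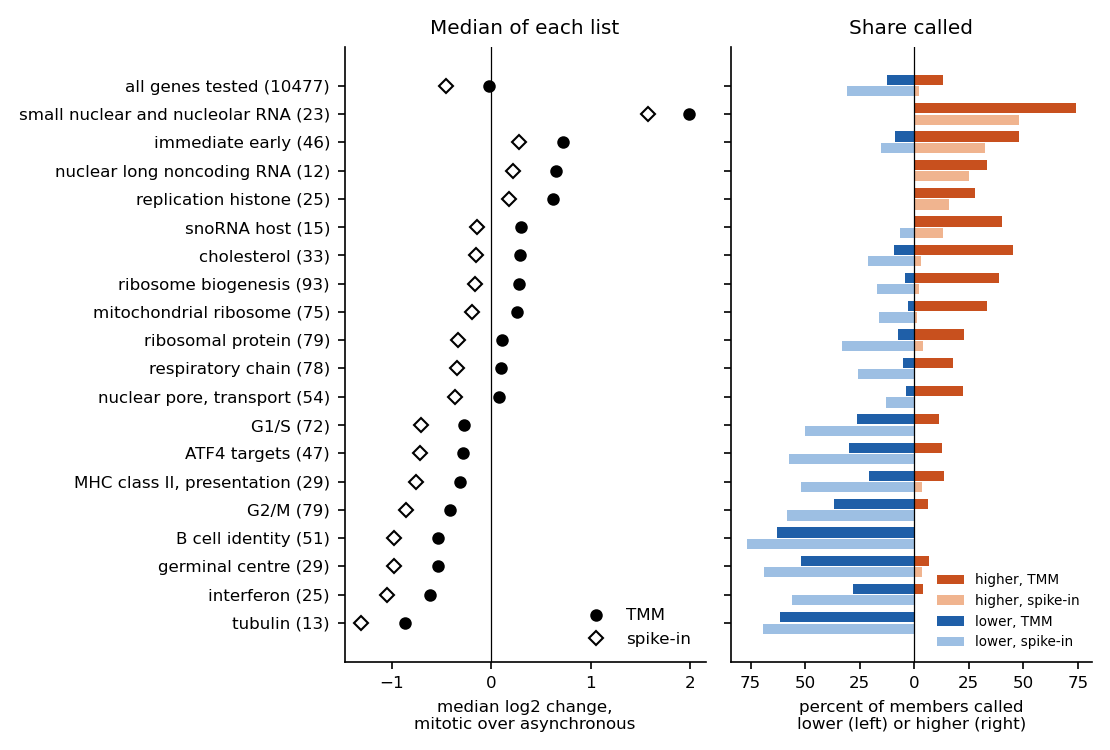
Median log2 change of the tested members of each gene list in WT mitotic against asynchronous cells, by TMM (filled points) and by ERCC spike-in scaling (open points), beside the percent of tested members called lower (bars to the left) and higher (bars to the right), with the number tested after each name and all genes tested, at medians of -0.02 and -0.46, in the top row. Small nuclear and nucleolar RNAs, 8 of which had at least 10 reads in both asynchronous libraries, lie farthest to the right at 1.99 and 1.58 and tubulins farthest to the left at -0.87 and -1.31.

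Among genes with large falls outside those lists, the level in WT mitotic replicate 1 mattered. The 15 with the most negative TMM change that passed on both scales and met the rest of the naming rule were taken. They were lower in replicate 1 than in replicate 2 in 14 cases. Their median log2 ratio of replicate 1 over replicate 2 was -0.75. The same 15 were lower in S38D asynchronous replicate 1 than in replicate 2 in 14 cases, with a median of -1.44. Without WT mitotic replicate 1, 8 of the 15 were still called. Trp53inp1, a p53 target that promotes autophagy, was among the 8, at 36.1 and 24.3 CPM and then 2.64 and 3.29 CPM, a log2 change of -3.36 ± 0.31 by TMM and -3.78 by spike-in. Lig4, the DNA ligase of end joining, was at 50.4 and 26.6 CPM and then 6.04 and 7.89 CPM (-2.49), and Klhl24, an adaptor of a ubiquitin ligase, at 17.0 and 20.4 CPM and then 3.21 and 4.82 CPM (-2.22). These too were still called, and their groups were apart, which the naming rule required. Nup107, a nuclear pore scaffold protein, was at 97.2 and 110.4 CPM and then 3.96 and 11.8 CPM (-3.74 ± 0.99), and its call was lost without mitotic replicate 1. The 15 with the largest rises were all still called without that library.

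The base composition of the transcript end moved with the calls. The median GC content of the last 300 bases was 46.7% in genes higher by TMM, 38.3% in those lower and 42.7% in those not called. With genes in 5 groups of similar size by that measure, the share called higher rose from 6.22% to 21.5% and the share called lower fell from 20.8% to 6.12%. The median log2 ratio of WT mitotic replicate 1 over replicate 2 went from -0.04 to 0.13 over the same groups. With the GC trend of each library removed, an alternative added after seeing the data, 1371 genes were higher and 1235 lower by TMM.

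Whether the WT change differed from that of the lines with altered serine 38 was tested directly, as the WT change minus the mean of the S38A and S38D changes. By TMM the WT change was above in 93 genes (0.888%) and below in 91 (0.869%), and by spike-in above in 7 (0.0668%) and below in 364 (3.47%). Against single lines, 52 (0.496%) were above and 52 (0.496%) below S38A, and 27 (0.258%) above and 15 (0.143%) below S38D. These counts hung on single libraries, running from 3 above and 2 below without WT asynchronous replicate 1 to 1548 and 1125 without S38D asynchronous replicate 2. They were 15 and 21 without WT asynchronous replicate 2, 8 and 6 without WT mitotic replicate 1, 97 and 110 without WT mitotic replicate 2, 364 and 264 without S38D asynchronous replicate 1, and 13 to 46 without any other library.

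Cholesterol synthesis genes made up 13 of the 93. Cholesterol is built from acetyl-CoA through mevalonate and squalene, and the genes of this chain are switched on together by SREBP2 when membranes lack sterol. Upstream windows of Dhcr7 and Msmo1 are shown, the list's first 2 by adjusted p, at chr7:143822967-143823166 on the plus strand and chr8:64733579-64733778 on the minus strand (RefSeq, GRCm38.p6, 200 bases before the start). Capitals mark CCAAT and, in Msmo1, the AP-1 site TGAGTCA.
Dhcr7: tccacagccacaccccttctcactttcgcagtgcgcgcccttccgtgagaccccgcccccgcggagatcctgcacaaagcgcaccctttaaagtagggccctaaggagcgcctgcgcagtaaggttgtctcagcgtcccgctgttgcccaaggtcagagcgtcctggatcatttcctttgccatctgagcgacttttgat
Msmo1: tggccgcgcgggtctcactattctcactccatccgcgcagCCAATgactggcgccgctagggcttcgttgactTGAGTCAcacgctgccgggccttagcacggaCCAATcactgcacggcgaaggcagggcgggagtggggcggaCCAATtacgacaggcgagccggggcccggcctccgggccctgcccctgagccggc
CCAAT was found at -160, -96 and -55 in Msmo1 and in 79.2% of 24 cholesterol promoters, against 39.4% of all 8112, in windows of 300 bases on either strand. The share was 66.7% in the 12 of those that were higher by TMM. It was 77.3% in 66 promoters of the G2/M list, whose members were more often lower. The sterol response element SRE-1, searched as an exact match, was found in 0 of the 24 and in 1 of all 8112. Dhcr7 had no match to any motif searched in its window.

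Fdft1, squalene synthase, the first enzyme committed to sterols (chr14:63145150-63179578, minus strand), was at 136 and 142 CPM in WT asynchronous and 236 and 224 CPM in WT mitotic cells. In S38A it was at 173 and 184 CPM and then 112 and 86.9 CPM, and in S38D at 154 and 115 CPM and then 76.5 and 81.9 CPM. The WT mitotic libraries were thus the highest of the 12 and the mutant mitotic libraries the lowest. The difference of changes was 1.53 ± 0.18 log2 units (edgeR adjusted p = 0.00102), with 0.73 in WT, -0.84 in S38A and -0.76 in S38D, and by spike-in it was 1.123. Dhcr7, the last enzyme of the chain, was at 30.1 and 32.0 CPM and then 63.4 and 68.3 CPM in WT, and between 30.1 and 44.8 CPM in all 8 mutant libraries, a difference of 1.32 ± 0.18 (edgeR adjusted p = 0.00292). Msmo1, a sterol methyl oxidase, was at 640.3 and 602 CPM and then 1069 and 988 CPM in WT, and at 467 to 522 CPM in S38A and 614 to 617 CPM in S38D mitotic cells, a difference of 1.07 ± 0.12.

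Of 33 cholesterol genes tested of 34 listed, 15 were higher and 3 lower in WT mitotic cells by TMM (45.5% and 9.09%, beside 13.4% and 12.7% of all genes), with a median of 0.29. By spike-in 1 was higher (Dhcr7) and 7 lower (21.2%, beside 30.8%), with a median of -0.15 beside -0.46. The 3 lower by TMM were Abca1, a cholesterol exporter, Nsdhl and Idi1, enzymes of the chain. Leaving out WT asynchronous replicate 1 or 2 gave 7 and 8 higher by TMM, and the spike-in lower count 3 and 4 without WT asynchronous replicate 2 and mitotic replicate 1. In S38A mitotic cells 1 was higher and 13 lower, and in S38D 3 and 9. By chromosome, 4.87% to 11.3% of all tested genes were higher and 4.03% to 13.7% lower in S38A. In S38D these shares were 7.47% to 14.6% and 10% to 23.7%. The difference test called 13 above and 1 below, with a median of 0.50 beside 0.02 over all genes, and 27 of 33 were positive. Among the 13 were Fdft1, Mvd, Acat2, Dhcr7, Mvk, Msmo1, Cyp51, Hmgcs1, Pmvk, Hsd17b7, Erg28 and Nsdhl, and the 1 below was Abcg1, a cholesterol exporter. By spike-in 5 were above (Fdft1, Mvd, Acat2, Dhcr7 and Msmo1) and 2 below. In all 13 the WT mitotic mean was above both mutant mitotic means, and in 7 of 13 the WT asynchronous mean was below both mutant asynchronous means. These means enter the difference that selected the 13, so this describes the calls and is no separate support for them. Against S38A alone 14 were above and 0 below (2 at an unadjusted p under 0.05), and against S38D alone 10 and 0 (2 at an unadjusted p under 0.05). DESeq2 gave 14 and 0. The count above was 3, 6 and 6 without WT asynchronous replicate 1, replicate 2 or mitotic replicate 1, and 10 to 19 without any other library; the Abcg1 call was lost in 9 of the 12 omissions. By spike-in the count above ran from 0, without WT asynchronous replicate 1 or 2, WT mitotic replicate 1 or S38D mitotic replicate 1, to 10 without either S38D asynchronous library.

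**Figure D5:**
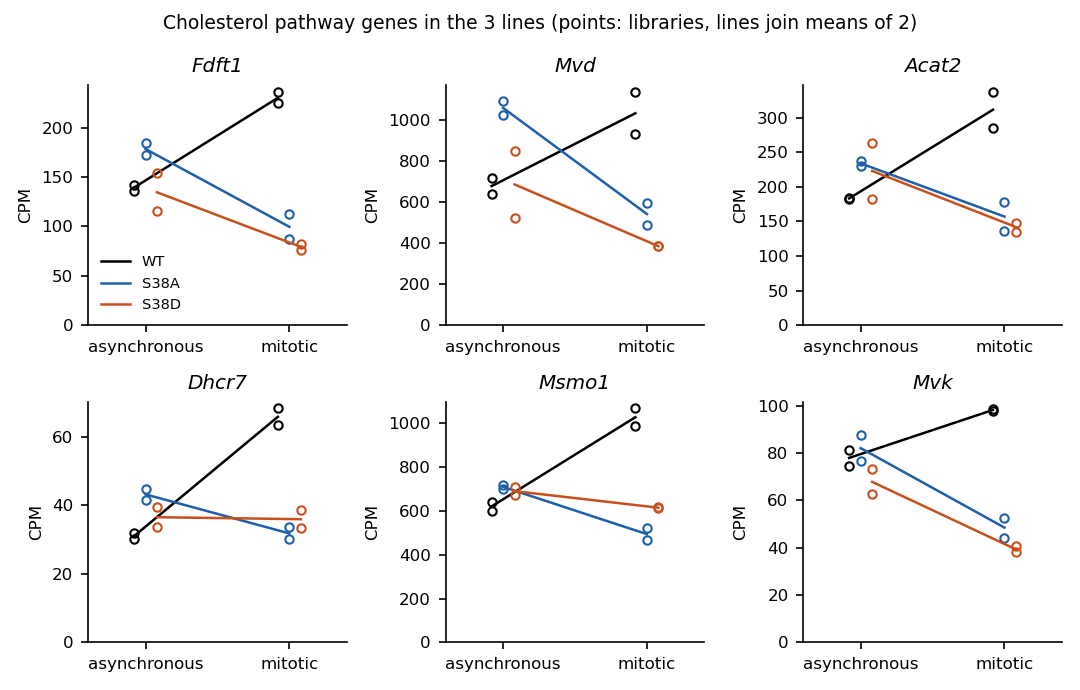
Level in CPM (linear axes from 0) of 6 cholesterol pathway genes in each of the 12 libraries, asynchronous on the left and mitotic on the right of each panel, with points for libraries, colours for the lines (WT, S38A, S38D) and lines joining the means of 2. For Fdft1 the WT mitotic libraries lie at 236 and 224 CPM, above the mutant mitotic libraries at 76.5 to 112 CPM.

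Most genes whose WT change lay below that of the mutant lines had their highest levels in WT asynchronous cells. In 68 of the 91, both WT asynchronous libraries were above all 10 others, whereas both were below all 10 others in 30 of the 93 genes of the other direction. A high WT asynchronous level itself lowers this difference, so the choice of genes favoured the pattern. Its share over all genes was not counted. Sap30, a subunit of a histone deacetylase complex (chr8:57482707-57487860, minus strand), was at 24.4 and 28.3 CPM in WT asynchronous cells and at 6.04 and 8.76 CPM in WT mitotic cells, and the other 10 libraries lay between 5.85 and 14.7 CPM. The difference was -2.28 (edgeR adjusted p = 0.00675). The median GC of the transcript ends was 34.3% in the 91 and 48% in the 93, beside 42.7% in genes not called in the WT comparison.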

How the data were processed

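QuantSeq 3′ mRNA-seq libraries, which read 51 bases near the poly(A) end of transcripts, were made from 2 libraries of each of 6 groups. The authors deposited read counts per gene and per ERCC spike-in for each library, and per the submitters' processing notes the tools were bcl2fastq 2.16.0.10, cutadapt 1.12 and STAR 2.5.3a on mm10. The counting program, its use of strand and its handling of reads with several matches were not given in the sources used here. Genes were matched to GENCODE M21 on GRCm38.

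Counts were tested here with edgeR 4.0.16 in R 4.3.3 (quasi-likelihood, robust, filterByExpr with a minimum count of 10) over all 12 libraries, with 6 residual degrees of freedom, with Benjamini-Hochberg adjustment over the 10477 genes that passed and a threshold of 0.05. Library sizes were scaled by TMM or by total spike-in reads. The line difference is an interaction contrast. DESeq2 1.42.0 and limma-voom (limma 3.58.1) were alternatives, and a fit with replicate number as a block was another. The code was tested on simulated data. Same-numbered replicates were not taken as pairs: the correlation of their deviations was -0.012 between the WT groups and ran from -0.399 to 0.786 over the 15 pairs of groups, above 0.1 in 3 and below -0.1 in 3 (0.786 between WT mitotic and S38D asynchronous), and the labels name no shared day or culture.

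The genes named were Rpl12, the 15 with the largest change in each direction, the 4 of smallest adjusted p in each list, and the 6 with the largest line difference in each direction. The 15 had to pass on both scales at a mean of at least 10 CPM. Their mitotic and asynchronous libraries also had to be apart on both scales, so being apart is no result for these genes. For the 4 of smallest adjusted p in each list, being apart was favoured by the choice. The share of all genes that were apart was not counted. Predicted or clone names, such as Gm symbols, were left out of the 15 and the 6. Some genes under this rule are not reported here, and others were named after their values were seen. The members and lists were chosen with earlier results of these data known. Promoters and motifs were read from RefSeq on GRCm38.p6.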

Additional observations from a re-analysis of the deposited data

Results flagged for a closer look

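The test of the mitotic change in WT against the mean change of the S38A and S38D lines, an interaction test in edgeR with TMM scaling, was passed by the 12 genes given here, the 6 largest in each direction. Several of these calls were lost under other settings or with 1 library left out: 11 of 16 times for Etv4, 10 of 16 for Tmed7 and Bud13, 9 of 16 for Pnpt1, 8 of 16 for Bccip and 8 of 17 for Mvd, and 0 to 3 times for the other 6. The WT change lay above for Fdft1 by 1.53 log2 units, Mvd by 1.51, Etv4 by 1.42, Acat2 by 1.38, Dhcr7 by 1.32 and Itgb3 by 1.30. Of these, Fdft1, Mvd, Acat2 and Dhcr7 make cholesterol, Etv4 is an ETS transcription factor and Itgb3 an integrin subunit. Itgb3 did not pass in WT, at 44.5 and 36.2 CPM in asynchronous and 40.0 and 40.5 CPM in mitotic libraries. It was at 135, 124, 105 and 76.2 CPM in the asynchronous and at 57.9, 43.2, 36.8 and 38.2 CPM in the mitotic libraries of the mutant lines.

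The WT change lay below for Pnpt1 by -2.40 log2 units, Sap30 by -2.28, Bccip by -2.15, Birc2 by -2.01, Tmed7 by -1.74 and Bud13 by -1.70. Pnpt1 codes for a mitochondrial RNA exonuclease and Birc2 for an inhibitor of apoptosis. In all 6, both WT asynchronous libraries were above all 10 other libraries, which the choice of genes by this difference favoured. Pnpt1 was at 23.8 and 20.4 CPM there and between 5.48 and 15.2 CPM in the others, and Birc2 was at 23.8 and 20.9 CPM and between 6.04 and 12.2 CPM. The part of that difference between asynchronous lines in the result was not tested.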

How the results depend on the processing

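With 2 libraries a side, calls rest on the spread pooled over 6 groups. Spike-in scaling gave 217 higher and 3232 lower genes in place of 1399 and 1328. The other scalings, filters, tools, the 4 WT libraries alone and the GC offset kept each count of the WT comparison within 1.5 times. For the WT change minus the mutant mean (93 above, 91 below), spike-in scaling gave 7 and 364, the GC offset 53 and 49, DESeq2 210 above, and leaving out WT mitotic replicate 1 and S38D asynchronous replicate 1 together 162 and 167. Against S38A (52 and 52) these were 9 and 482 by spike-in, 28 below with the GC offset, 118 above by DESeq2, and 444 and 351 without both libraries. Against S38D (27 and 15) they were 0 and 0 by spike-in, 8 below with the GC offset, and 92 and 34 by DESeq2.

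Leaving out 1 of the 12 libraries at a time gave 538 to 2018 higher and 567 to 1873 lower by TMM, 86 to 357 and 1495 to 4593 by spike-in, and 86 to 353 and 567 to 1873 on both scales. The line differences ran from 3 to 1548 above and 2 to 1125 below for the mean, 5 to 828 and 1 to 483 for S38A, and 0 to 1581 and 0 to 1176 for S38D. Of 47 list counts between 1 and 5, 41 moved by over 1.5 times in at least 1 omission. Cct3 changed sign by spike-in (-0.11). The cause was not tested in any of these.

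With the replicate block, the WT comparison had 1428 higher and 1423 lower by TMM and 232 and 3477 by spike-in. The line difference had 159 above and 171 below for the mean, 81 below for S38A, and 52 above and 43 below for S38D.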

Other observations

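Some stress and metabolic genes not described above also changed in WT mitotic cells. Of 47 ATF4 target genes of the integrated stress response, 14 were lower (29.8%, beside 12.7% of all genes) and 6 higher (12.8%, beside 13.4%) by TMM. By spike-in 27 were lower (57.4%, beside 30.8%) and 0 higher (1 higher at an unadjusted p under 0.05). Ddit4, an inhibitor of mTORC1 signalling, was at 444 and 480.5 CPM in asynchronous and 269 and 263 CPM in mitotic libraries, a log2 change of -0.80, and Slc3a2, an amino acid transporter subunit, had 0.77. Without each WT library in turn the TMM-lower count was 9, 6, 8 and 9. Of 25 interferon-stimulated genes, 7 were lower (28%, beside 12.7% of all genes) and 1, Adar, higher (4%, beside 13.4%) by TMM. By spike-in 14 were lower (56%, beside 30.8%) and 0 higher (0 higher at an unadjusted p under 0.05). DESeq2 called 3 lower and 0 higher (1 higher at an unadjusted p under 0.05). The TMM-lower count was 2, 4 and 3 without asynchronous replicate 1, replicate 2 and mitotic replicate 1. Of 47 proteasome genes, 5 were lower (10.6%) and 4 higher (8.51%) by TMM, under the shares of all genes, and 28 were lower by spike-in (59.6%, beside 30.8% of all genes), which was 9, 12 and 18 without WT asynchronous replicate 2 and mitotic replicates 1 and 2. Within glycolysis, Eno1, an enolase, was at 21.3 and 25.8 CPM and then 128 and 90.2 CPM (2.23 by TMM, 1.78 by spike-in), whereas Aldoa, an aldolase, was at 676 and 717 CPM and then 463 and 412 CPM (-0.67 by TMM).

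Genes on the X chromosome were called lower more often than genes as a whole. Of 308 tested, 21.8% were lower and 5.19% higher by TMM, beside 12.7% and 13.4% of all genes, with a median of -0.28. The median GC of their transcript ends was 38.5%, beside 42.7% in all genes tested and 38.3% in all genes lower by TMM. Chromosome 13, at 38.7%, had 14.3% lower and 12.4% higher by TMM. Chromosome 18, at 39%, had 18.1% lower and 8.87% higher. With the GC trend removed 16.2% were lower and 7.79% higher, beside 11.8% and 13.1% of all genes. Without WT mitotic replicate 1 the shares were 9.74% and 1.62%, beside 5.73% and 6.28%.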
